A study of Mus musculus with 9 samples.

Results

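The set described here is 41 genes of fatty acid oxidation in mouse liver: 19 genes of the mitochondrial pathway, 14 of the peroxisomal pathway, 2 enzymes of ketone body metabolism and 6 genes that feed or accompany oxidation (4 acyl-CoA synthetases, the pantetheinase *Vnn1* and the kinase *Pdk4*). A member was a transcript cluster, the array's unit for a gene, whose symbol in the platform annotation was on the list. The 22206 clusters of the array included 38 of the 41 members, each with 1 cluster. No cluster with a single symbol was named *Etfb*, *Acsl1* or *Acsl3*, and those genes were not analysed. Clusters annotated with several symbols were not searched for members. Members were matched by gene name, with no threshold on a measured value, but the list was drawn up with earlier results of these data known.

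Whole livers of male mice were profiled on 9 Clariom S arrays, in 3 groups of 3. Wild-type C57BL/6JHamSlc-+/+ mice and obese C57BL/6JHamSlc-ob/ob mice received vehicle, and further ob/ob mice received an extract of *Vigna umbellata*, the rice bean, at 100 mg per kg body weight by oral gavage. The ob/ob strain lacks functional leptin throughout the body, so its liver is that of an obese animal and not of one with a change confined to hepatocytes. All mice were 6 weeks old at purchase, ate standard chow and were treated for 42 days, and no wild-type group received the extract. The design text gives 3 mice per group and each array was taken to be 1 mouse. Nothing in the labels states separate litters or extraction days, so p-values measure the spread between these samples only.

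Fatty acids enter oxidation as acyl-CoA. Long chains cross into mitochondria on carnitine, through the carnitine palmitoyltransferases and the carnitine-acylcarnitine carrier, and are shortened by repeated rounds of dehydrogenation, hydration, a second dehydrogenation and thiolytic cleavage. Peroxisomes start the same spiral with acyl-CoA oxidases, which pass electrons to oxygen, and handle very long, branched and dicarboxylic chains and the side chain of bile acid precursors. In the fasting liver, acetyl-CoA from oxidation is turned into ketone bodies, and many of these genes are known targets of the nuclear receptor PPAR alpha, which binds a direct repeat of the hexamer AGGTCA spaced by 1 base, called DR1.

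Sequences at the transcription starts of the members were read from RefSeq promoter windows of assembly GRCm38.p6, each running from 250 bases before to 50 bases after an annotated start. Windows were found for 34 of the 41 members, 38 windows in all, and for 7 of the 9 members whose level rose in ob/ob liver. The windows were searched on both strands for AGGTCANAGGTCA with at least 10 of its 12 defined letters. This pattern matched in 4 member windows, 10.5% of them, and in 3.86% of all 32851 windows. The 4 stretches are shown because they are the member sequences closest to the PPAR alpha pattern, with the 13 matching bases in capitals.
Acox2, chr14:8258812-8258836, minus strand: tgtcccAGGACAGAGGTGAgtcaag
Echs1, chr7:140116486-140116510, minus strand: ccgctcAGGTCACGGGTCCacccct
Slc25a20, chr9:108662136-108662160, plus strand: gaatgtAGGTGAAAGGTCGgcggag
Etfa, chr9:55512302-55512326, minus strand: acacccTTACCTTTGCCCTactccc
The *Etfa* match lies on the strand opposite to the gene, and the others lie on the gene's own strand. All 4 matches had exactly 10 of the 12 letters. *Slc25a20* and *Acox2* are among the members that rose in ob/ob liver, and *Echs1* and *Etfa* are not. Such a match is a description of letters and not a measured binding site.

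The 250 bases before the start are shown for the 4 members with the largest rise in ob/ob liver among those with a window. The exact hexamer AGGTCA, or its reverse complement TGACCT, is in capitals.
Pex11a, chr7:79743132-79743381, minus strand: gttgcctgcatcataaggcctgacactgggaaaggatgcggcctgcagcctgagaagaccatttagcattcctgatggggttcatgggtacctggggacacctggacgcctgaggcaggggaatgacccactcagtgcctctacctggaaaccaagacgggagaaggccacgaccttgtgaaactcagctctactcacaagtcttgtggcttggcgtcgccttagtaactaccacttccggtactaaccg
Slc25a20, chr9:108661886-108662135, plus strand: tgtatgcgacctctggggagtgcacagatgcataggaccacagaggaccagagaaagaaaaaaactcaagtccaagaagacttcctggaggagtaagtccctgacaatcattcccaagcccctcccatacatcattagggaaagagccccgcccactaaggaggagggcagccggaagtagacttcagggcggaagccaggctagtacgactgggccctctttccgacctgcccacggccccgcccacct
Acadm, chr3:153944644-153944893, minus strand: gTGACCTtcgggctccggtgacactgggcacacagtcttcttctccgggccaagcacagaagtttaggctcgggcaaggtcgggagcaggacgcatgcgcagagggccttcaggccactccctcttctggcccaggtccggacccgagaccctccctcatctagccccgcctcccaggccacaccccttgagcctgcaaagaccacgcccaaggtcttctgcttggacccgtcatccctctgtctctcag
Ehhadh, chr16:21787835-21788084, minus strand: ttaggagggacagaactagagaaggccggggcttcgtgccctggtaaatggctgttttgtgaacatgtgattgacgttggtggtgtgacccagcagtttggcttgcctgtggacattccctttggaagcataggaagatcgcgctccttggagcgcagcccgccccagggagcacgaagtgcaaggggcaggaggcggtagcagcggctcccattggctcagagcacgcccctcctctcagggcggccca
Only *Acadm* of these 4 holds an exact hexamer, 1 copy at the far end of its stretch. Over all member windows the hexamer occurred in 5 of 38, 13.2%, against 16.3% of all windows. Member windows had a median GC content of 60.7%, against 52.7% over all windows, and a median of 17 CpG dinucleotides against 7. Letters that are missing from a window of this length say nothing about sites elsewhere in the gene.

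*Hadha* and *Hadhb*, which encode the alpha and beta subunits of the mitochondrial trifunctional protein, lie head to head on chromosome 5, with 272 bases from one start to the other. The stretch that lies upstream of both starts is shown on the plus strand, with no exact hexamer in it. Its effect on either gene was not tested.
Hadha and Hadhb, chr5:30155003-30155230: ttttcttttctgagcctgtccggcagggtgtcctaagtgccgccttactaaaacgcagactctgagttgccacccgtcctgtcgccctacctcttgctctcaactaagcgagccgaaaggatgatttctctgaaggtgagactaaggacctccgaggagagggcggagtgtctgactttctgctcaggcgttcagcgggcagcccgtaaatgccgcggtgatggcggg

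Some arrays stood apart before any comparison was made. Correlations within a group over all clusters were 0.948 to 0.952 for ob/ob vehicle replicate 3 and 0.955 for wild-type vehicle replicate 3, against 0.980 to 0.990 for the remaining pairs. Those 2 arrays also had the narrowest spread of values, an interquartile range of 3.26 and 3.01 log2 against 3.36 to 3.85. Wild-type vehicle replicate 2 carried skeletal muscle transcripts: *Acta1* was 12.04 there and 4.01 to 5.02 on the other 8 arrays, *Tnni2* 10.52 against 3.51 to 4.71, and *Mb* 9.81 against 4.93 to 6.21. The other measured muscle markers set this array apart less or not at all. *Myh6* was 5.22 there against 3.33 to 4.69. *Ckm* was 7.14 there and 7.42 on wild-type replicate 3, and *Tnnt2* was 4.04 against 3.47 to 4.84. Muscle oxidises fatty acids too, and the part of muscle RNA in the results was not tested. The values without wild-type replicate 2 are therefore given beside the counts. The 9 measured hepatocyte markers were on all arrays above the 97.5th percentile of 1091 olfactory receptor clusters, genes that liver is not known to use, with a mean of 17.67 to 17.92 in wild type, 16.93 to 17.57 in vehicle-treated ob/ob mice and 17.13 to 17.62 with extract. The 4 measured adipocyte markers (*Adipoq*, *Lep*, *Plin1* and *Retn*) stayed under that olfactory receptor level on all 9 arrays.

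The first comparison asked how the untreated ob/ob liver differs from the wild-type liver. Transcripts of fatty acid oxidation were higher in the obese liver across both organelles: 9 of the 38 measured members rose, none fell, and the difference was above 0 for all 38. By comparison 2.28% of all clusters rose, 2.96% changed in either direction and 0.68% fell (limma over all 22206 clusters, with a Benjamini-Hochberg adjusted p below 0.05). The members that rose were *Slc25a20*, *Acadm*, *Hadh* and *Decr1* of mitochondria, *Acox2*, *Ehhadh*, *Acaa1b* and *Pex11a* of peroxisomes, and *Vnn1*. The median difference was 1.18 log2 over the members and -0.06 over all clusters, of which 44.2% lay above 0. When the lowest 50 percent of clusters were left out, all 38 members remained. Then 11 members were called higher, against 7.33% of the clusters kept called in either direction, and the median over those clusters was 0.13. In 21 members every ob/ob vehicle array was above every wild-type array, which held for 9.71% of all clusters, and no member had the groups apart in the other direction (9.78% of all clusters). In bulk liver a different number of cells of a type and a different amount of RNA per cell cannot be told apart.

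**Figure D1:**
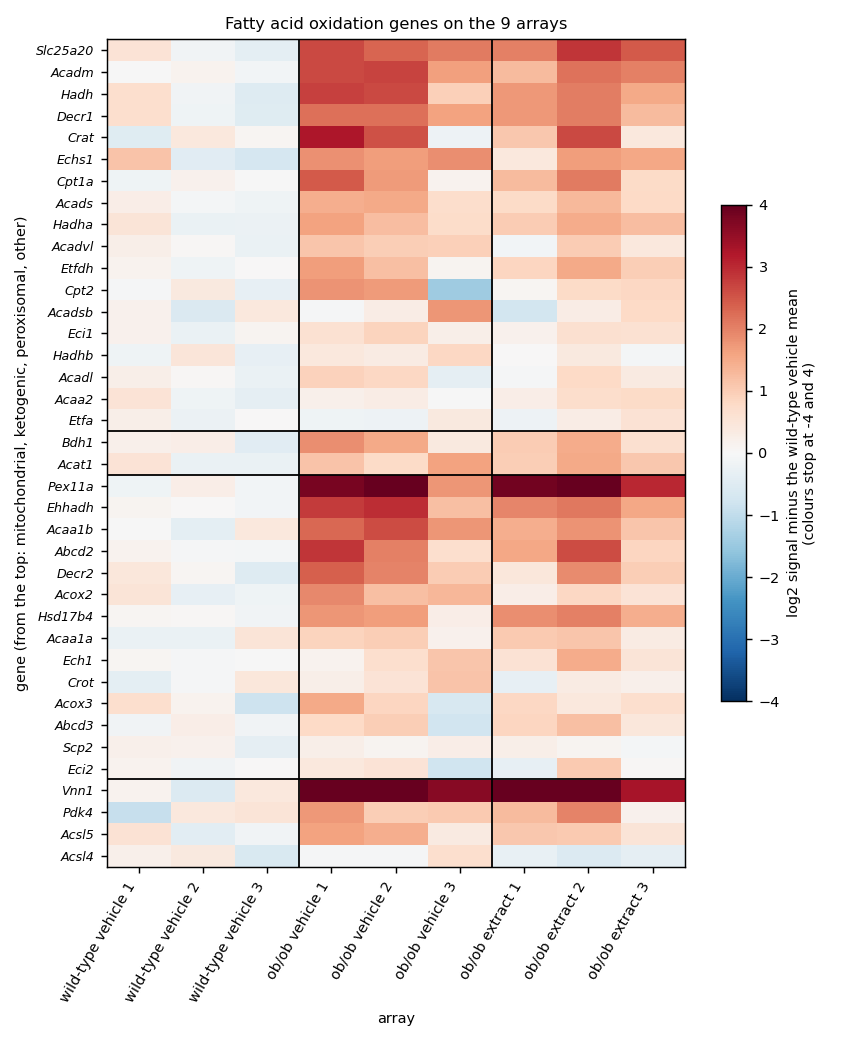
Log2 signal of the 38 measured members (rows, ordered by class and then by difference) on the 9 arrays (columns), drawn as the difference from the gene's wild-type vehicle mean, with colours that stop at -4 and 4. The ob/ob vehicle and ob/ob extract columns are mostly red, and ob/ob vehicle replicate 3 is the palest of its group in many rows.

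By role, the rise was not limited to a single step. The 4 measured genes of the carnitine shuttle had a median difference of 1.64 with 1 called, the 12 mitochondrial oxidation enzymes 1.10 with 3 called, and the 2 electron transfer genes 0.51 with 0 called. The 11 peroxisomal enzymes had a median of 0.67 with 3 called, and the 3 peroxisomal membrane proteins 1.85 with 1 called. Both ketone body enzymes lay above wild type, with a median of 1.22 and neither called. By organelle, 4 of 18 mitochondrial members rose with a median of 1.10 and a range of 0.01 to 2.35, and 4 of 14 peroxisomal members rose with a median of 0.96 and a range of 0.05 to 3.30. No test was made between the classes. The design text used a looser criterion, a linear fold above 1.1 and p below 0.05 without adjustment, by which 24 members were higher and 0 lower, against 10.3% and 6.72% of all clusters.

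*Slc25a20* encodes the carnitine-acylcarnitine translocase of the inner mitochondrial membrane. Its log2 signal was 9.56, 8.88 and 8.64 on the wild-type arrays, 11.67, 11.35 and 11.11 in ob/ob vehicle and 11.05, 11.88 and 11.47 with extract. All 6 ob/ob arrays were above all 3 wild-type arrays, and the ob/ob groups overlapped. The group means were 9.03 ± 0.48 (SD, n = 3), 11.38 ± 0.28 and 11.47 ± 0.41, and ob/ob vehicle exceeded wild type by 2.35 (SE 0.32, 95% interval 1.64 to 3.06, limma adjusted p = 0.00525).

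The other 3 measured shuttle genes differed in how far the arrays scattered. *Cpt1a*, the rate-controlling carnitine palmitoyltransferase of the outer membrane, had means of 11.62 ± 0.17 in wild type and 13.05 ± 1.18 in ob/ob vehicle, a difference of 1.43 (SE 0.53, limma adjusted p = 0.195). Its ob/ob vehicle values were 14.07, 13.32 and 11.75, and the last of these lay inside the wild-type range of 11.46 to 11.79. *Cpt2*, the inner-membrane partner, read 10.54, 10.44 and 7.31 in ob/ob vehicle, so that its mean of 9.43 ± 1.84 was not separable from the wild-type mean of 8.74 ± 0.37 (limma adjusted p = 0.686). *Crat*, which makes short-chain acylcarnitines, showed the same layout, at 10.12, 9.42 and 6.68 in ob/ob vehicle against 6.4, 7.3 and 6.96 in wild type (difference 1.85, SE 0.81, limma adjusted p = 0.276). In all 3 genes ob/ob vehicle replicate 3 was the low array.

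Among the mitochondrial enzymes, *Acadm* encodes the medium-chain acyl-CoA dehydrogenase. It read 9.39, 9.55 and 9.32 in wild type, 12.06, 12.11 and 11.05 in vehicle-treated ob/ob mice and 10.69, 11.6 and 11.45 with extract. The wild-type arrays lay close together and below every ob/ob array. Means were 9.42 ± 0.12, 11.74 ± 0.60 and 11.25 ± 0.49 (n = 3 each), and ob/ob vehicle was higher than wild type by 2.32 (SE 0.34, 95% interval 1.56 to 3.08, limma adjusted p = 0.00795).

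*Hadh*, the medium- and short-chain 3-hydroxyacyl-CoA dehydrogenase, read 15.65, 14.84 and 14.48 in wild type, 17.71, 17.63 and 15.94 in vehicle-treated ob/ob mice and 16.73, 17.04 and 16.5 with extract. Wild-type replicate 1 and ob/ob vehicle replicate 3 lay close to each other, but the groups did not overlap. The difference was 2.10 (SE 0.47, 95% interval 1.06 to 3.15, limma adjusted p = 0.0445), the weakest of the 9 calls.

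*Decr1*, the mitochondrial 2,4-dienoyl-CoA reductase that prepares polyunsaturated chains for the spiral, read 12.17, 11.32 and 11 in wild type, 13.69, 13.69 and 13.11 in vehicle-treated ob/ob mice and 13.22, 13.55 and 12.76 with extract. Again every ob/ob array lay above every wild-type array. The rise in ob/ob vehicle was 2.00 (SE 0.35, 95% interval 1.23 to 2.77, limma adjusted p = 0.0171).

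The remaining acyl-CoA dehydrogenases did not pass the test. *Acads*, for short chains, came nearest, at 9.68 ± 0.24 in wild type and 10.91 ± 0.45 in ob/ob vehicle (difference 1.23, SE 0.29, limma adjusted p = 0.0526), with the groups apart. *Acadvl*, for very long chains, was 12.04 ± 0.25 against 13.06 ± 0.09 (difference 1.02, SE 0.30, limma adjusted p = 0.11), also without overlap. *Acadl*, for long chains, and *Acadsb*, which acts on branched short chains, overlapped between groups, with differences of 0.46 and 0.67.

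Both subunits of the trifunctional protein, whose common upstream stretch is printed above, were measured. *Hadha* was 15.13 ± 0.45 in wild type and 16.31 ± 0.44 in ob/ob vehicle (difference 1.18, SE 0.31, limma adjusted p = 0.0794), with the groups apart. *Hadhb* was 14.66 ± 0.42 and 15.18 ± 0.26 (difference 0.52, SE 0.28, limma adjusted p = 0.393), with the groups overlapping. Neither was called, and the gap between the 2 differences was not tested.

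Of the other mitochondrial enzymes, the enoyl-CoA hydratase *Echs1* had a difference of 1.79 (SE 0.48, limma adjusted p = 0.0803) and the enoyl-CoA isomerase *Eci1* one of 0.58 (limma adjusted p = 0.294), both with the groups apart. The 3-ketoacyl-CoA thiolase *Acaa2* differed by 0.16 and overlapped. Among the genes that pass electrons from the dehydrogenases to the respiratory chain, *Etfdh* differed by 1.00 (limma adjusted p = 0.2) and *Etfa* by 0.01, the smallest difference of the 38. *Etfa*, whose promoter holds a DR1-like match, thus had means of 15.63 ± 0.24 and 15.65 ± 0.33.

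The 2 ketone body enzymes stood above wild type without overlap and without passing the test. *Acat1*, the mitochondrial acetoacetyl-CoA thiolase, was 13.03 ± 0.47 in wild type and 14.20 ± 0.42 in ob/ob vehicle (difference 1.18, SE 0.32, limma adjusted p = 0.0844). *Bdh1*, the 3-hydroxybutyrate dehydrogenase, was 10.15 ± 0.40 and 11.41 ± 0.77 (difference 1.26, SE 0.40, limma adjusted p = 0.134).

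In peroxisomes, *Acox2* encodes the branched-chain acyl-CoA oxidase that acts on bile acid intermediates. It read 13.35, 12.52 and 12.68 in wild type, 14.77, 14.06 and 14.19 in vehicle-treated ob/ob mice and 13.12, 13.69 and 13.4 with extract. The ob/ob vehicle arrays were above all others, and the extract arrays overlapped with wild type. The rise in ob/ob vehicle over wild type was 1.49 (SE 0.31, 95% interval 0.81 to 2.17, limma adjusted p = 0.0321). *Acox3*, a related oxidase, differed by 0.58 with overlap (limma adjusted p = 0.642) and lay under the olfactory receptor level on 1 wild-type array.

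*Ehhadh*, the peroxisomal bifunctional enzyme of straight chains, read 13.56, 13.45 and 13.35 in wild type, 16.26, 16.39 and 14.65 in vehicle-treated ob/ob mice and 15.4, 15.56 and 14.99 with extract. All ob/ob arrays were above wild type, and the third ob/ob vehicle array lay well below the others. The difference was 2.31 (SE 0.42, 95% interval 1.39 to 3.23, limma adjusted p = 0.0182). *Hsd17b4*, the multifunctional enzyme of branched chains, was 13.40 ± 0.12 in wild type and 14.64 ± 0.83 in ob/ob vehicle (difference 1.24, SE 0.38, limma adjusted p = 0.119).

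*Acaa1a* and *Acaa1b* encode peroxisomal 3-ketoacyl-CoA thiolases so alike in sequence that cross-hybridisation between their probes was not assessed here, and the split between them is uncertain. *Acaa1b* read 10.04, 9.66 and 10.46 in wild type, 12.36, 12.65 and 11.81 in vehicle-treated ob/ob mice and 11.49, 11.86 and 11.15 with extract. The wild-type arrays lay below every ob/ob array. The cluster rose by 2.22 (SE 0.32, 95% interval 1.52 to 2.92, limma adjusted p = 0.00647). *Acaa1a* was 11.87 ± 0.46 in wild type and 12.54 ± 0.44 in ob/ob vehicle, with overlapping groups (difference 0.67, SE 0.34, limma adjusted p = 0.36).

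*Pex11a* encodes a peroxisomal membrane protein that promotes peroxisome division. Its values were 8.93, 9.39 and 9.01 in wild type, 12.92, 13.44 and 10.88 in vehicle-treated ob/ob mice and 12.97, 14.32 and 12.11 with extract. The 3 wild-type arrays lay below all 6 ob/ob arrays, and ob/ob vehicle replicate 3 was the lowest of those 6. The means were 9.11 ± 0.25, 12.41 ± 1.35 and 13.13 ± 1.11, and the rise in ob/ob vehicle was 3.30 (SE 0.66, 95% interval 1.83 to 4.77, limma adjusted p = 0.0293), the largest among peroxisomal members. The acyl-CoA importers were not called: *Abcd2* differed by 1.85 (SE 0.55, limma adjusted p = 0.11) with the groups apart, and *Abcd3*, the abundant peroxisomal membrane protein once named PMP70, by 0.33 with overlap.

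The accessory enzymes of peroxisomal oxidation ranged from 0.05 to 1.81. *Decr2*, the peroxisomal dienoyl-CoA reductase, was at the upper end (SE 0.45, limma adjusted p = 0.0643, groups apart) and the isomerase *Eci2* at the lower end. *Ech1*, a dienoyl-CoA isomerase, and *Crot*, which loads medium chains onto carnitine for export, each differed by 0.64, and *Scp2*, the sterol carrier protein with thiolase activity, by 0.20. None of these 5 passed the test.

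*Vnn1*, a pantetheinase of the cell surface that is a known PPAR alpha target, had the largest difference of all members. It read 6.49, 5.78 and 6.75 in wild type, 11.44, 12.52 and 9.99 in vehicle-treated ob/ob mice and 11.06, 11.61 and 9.64 with extract. Every ob/ob array was well above the highest wild-type array. On wild-type replicates 2 and 3 *Vnn1* lay just above the olfactory receptor level of the array (5.74 and 6.62), so its fold may be understated. The difference was 4.98 (SE 0.64, 95% interval 3.56 to 6.40, limma adjusted p = 0.00397).

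*Pdk4*, which restrains pyruvate entry while fat is burned, was 5.29 ± 0.79 in wild type and 6.55 ± 0.42 in ob/ob vehicle (difference 1.26, limma adjusted p = 0.227). It lay under the olfactory receptor level on 3 of 3 wild-type arrays and on 1 ob/ob vehicle array, so its fold may be understated. Of the acyl-CoA synthetases, *Acsl5* differed by 1.14 (SE 0.38, limma adjusted p = 0.154) and *Acsl4* by 0.18, both with overlap.

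**Figure D2:**
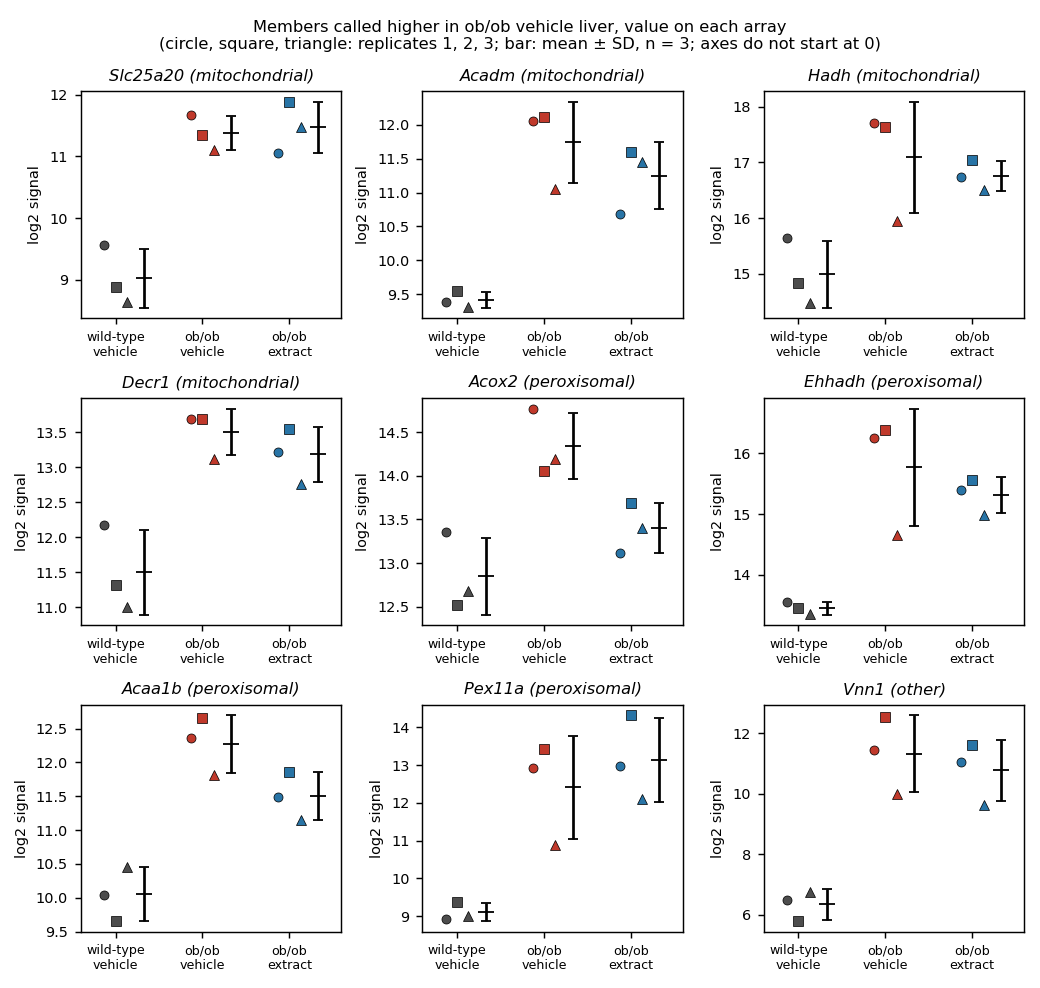
Log2 signal of the 9 members that rose in ob/ob vehicle liver, 1 panel per gene, for the 3 groups of 3 arrays, with circles, squares and triangles for replicates 1, 2 and 3 and bars for mean ± SD. The axes do not start at 0. In each panel the wild-type values lie below the ob/ob vehicle values, and the triangle of ob/ob vehicle is the lowest of its group in 8 of the 9.

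How firmly the 9 calls stand depended on which arrays entered. *Slc25a20*, *Acadm*, *Acaa1b* and *Vnn1* were called in all 9 fits that left out 1 array, with highest adjusted p of 0.0346, 0.0421, 0.0388 and 0.0302. *Decr1* and *Ehhadh* lost the call without ob/ob vehicle replicate 1 (limma adjusted p = 0.0756 and 0.0831) or 2 (0.0728 and 0.0767) and without wild-type replicate 2 (0.0824 for both) or 3 (0.0584 and 0.0648). *Hadh*, *Acox2* and *Pex11a* lost it without any of those 4 arrays, *Hadh* also without any extract array, *Acox2* without extract replicate 2 or 3 and *Pex11a* without wild-type or extract replicate 1, with limma adjusted p up to 0.161, 0.13 and 0.118. With only the 2 groups in the fit these 5 genes all lost the call, and *Hadh* and *Acox2* each lost it under another normalization or prior as well. Without wild-type replicate 2, the array with muscle transcripts, 4 members were called against 0.662% of all clusters, and 36 of 38 members stayed above 0 with a median of 1.04.

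Ob/ob vehicle replicate 3 set much of the spread in its group. It was the lowest of its group in 27 of 38 members, against 36.9% of all clusters, and in 8 of the 9 called members. It lay a median of -0.77 log2 from the mean of the others in its group over the members and 0.06 over all clusters, from -3.18 for *Cpt2* to 1.62 for *Acadsb*. The median SD of the members was 0.55 in ob/ob vehicle, 0.41 in wild type and 0.39 with extract, against 0.36, 0.37 and 0.27 over all clusters. Without that array 20 members were called, 10 mitochondrial, 7 peroxisomal, 1 ketogenic and 2 others, against 7.56% of all clusters. *Cpt1a* then rose by 2.08 (limma adjusted p = 0.0104), *Cpt2* by 1.75 (0.00945), *Crat* by 2.88 (0.0121), *Hadha* by 1.41 (0.0231), *Hsd17b4* by 1.72 (0.00408) and *Bdh1* by 1.69 (0.0134).

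The second comparison asked whether the rice bean extract changed these genes in ob/ob liver. No member was called higher or lower, and none of the 22206 clusters was (limma; percent called 0 in each direction, smallest adjusted p 0.741 among members and 0.593 over all clusters). No member was called either without both arrays that stand apart or with array weights, fits in which 360 (1.62%) and 106 (0.477%) of all clusters were. By the criterion of the design text, described above, 2 members were lower and 0 higher, against 2.9% and 3.56% of all clusters. The members' differences had a median of -0.15 and ran from -0.94 to 0.72, and 13 lay above 0 and 25 below. The median over all clusters was -0.01, and 48.5% of them lay above 0. In 2 members, *Acox2* and *Acsl4*, the extract arrays were all below the ob/ob vehicle arrays, against 6.08% of all clusters, and 0 had them all above, against 7.47%.

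**Figure D3:**
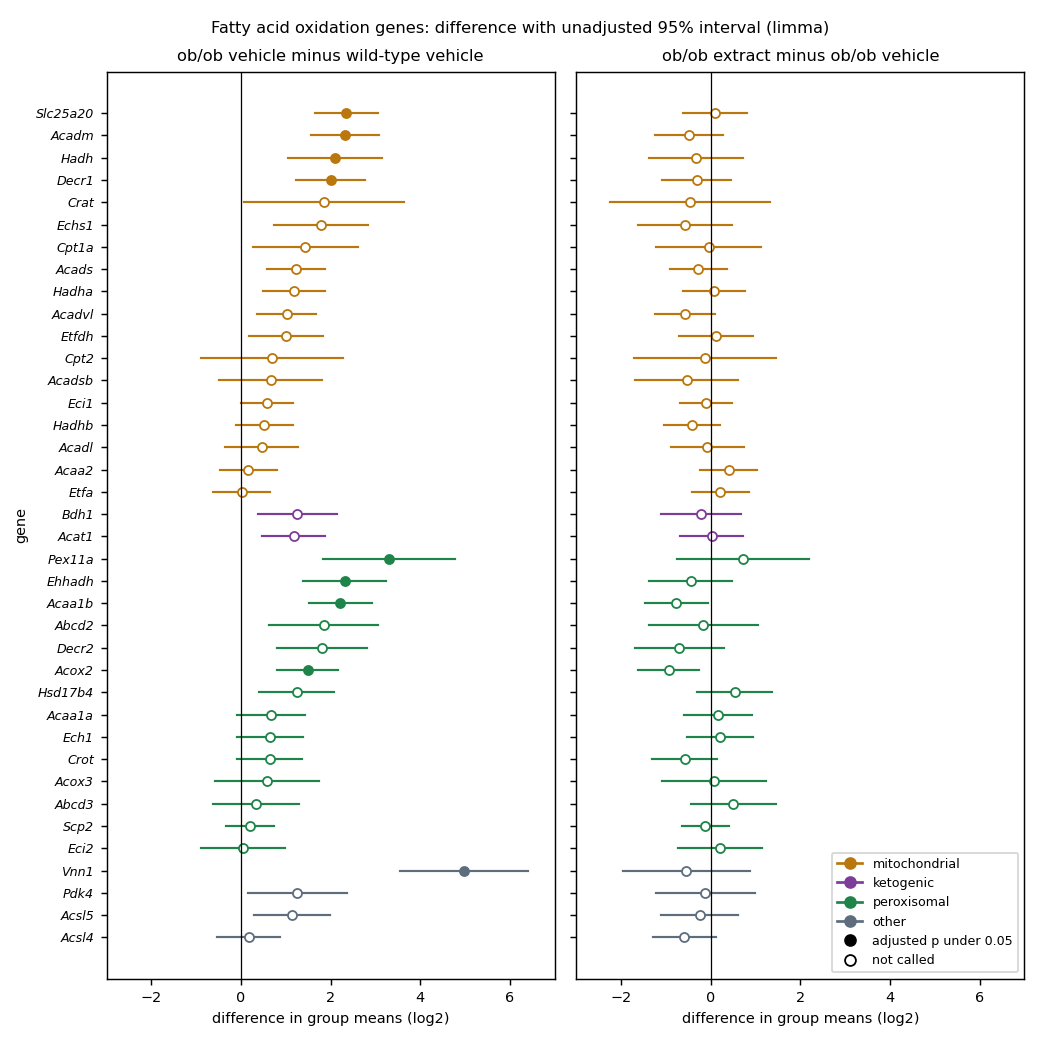
Difference in group means on the log2 scale (x axis) for each of the 38 members (y axis), with unadjusted 95% intervals from limma, for ob/ob vehicle minus wild type on the left and ob/ob extract minus ob/ob vehicle on the right. Filled points passed an adjusted p of 0.05: 9 on the left and 0 on the right, where all but 2 intervals include 0.

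The 2 members under an unadjusted p of 0.05 were peroxisomal. *Acox2*, with the array values given above, had a mean of 14.34 ± 0.38 in ob/ob vehicle and 13.40 ± 0.28 with extract, a difference of -0.94 (SE 0.31, 95% interval -1.62 to -0.26, limma adjusted p = 0.741). All 3 extract arrays lay below all 3 vehicle arrays and overlapped with wild type, whose mean was 12.85 ± 0.44. *Acaa1b* was 12.27 ± 0.43 and 11.50 ± 0.36, a difference of -0.77 (SE 0.32, 95% interval -1.48 to -0.07, limma adjusted p = 0.765), and its highest extract array, 11.86, overlapped with the lowest vehicle array, 11.81. Neither difference passed the adjustment over all clusters.

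The next 4 members by p had intervals that included 0. *Acadvl* read 13.16, 13.01 and 13 in ob/ob vehicle and 11.92, 13.05 and 12.46 with extract, with 12.27, 12.08 and 11.77 in wild type (difference -0.58, 95% interval -1.25 to 0.09, limma adjusted p = 0.79). The vehicle arrays were tightly grouped and extract replicate 2 fell among them. *Acsl4*, a synthetase that prefers arachidonate, read 10.51, 10.51 and 11.23 in ob/ob vehicle, 10.26, 10.01 and 10.21 with extract and 10.78, 10.97 and 9.97 in wild type (difference -0.59, 95% interval -1.29 to 0.11, limma adjusted p = 0.8).

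*Crot* read 16.47, 16.8 and 17.38 in ob/ob vehicle, 15.9, 16.58 and 16.43 with extract and 15.85, 16.2 and 16.68 in wild type (difference -0.58, 95% interval -1.30 to 0.14, limma adjusted p = 0.816). Extract and wild-type arrays of *Crot* covered much the same range. *Decr2* read 13.54, 13.13 and 12.17 in ob/ob vehicle, 11.58, 13.03 and 12.11 with extract and 11.58, 11.22 and 10.62 in wild type (difference -0.71, 95% interval -1.70 to 0.29, limma adjusted p = 0.835). The extract arrays of *Decr2* overlapped with both other groups.

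For the members that had risen in ob/ob liver the intervals were wide. *Slc25a20* differed between extract and vehicle by 0.09 (95% interval -0.62 to 0.80), *Acadm* by -0.49 (-1.26 to 0.27), *Hadh* by -0.34 (-1.38 to 0.71) and *Decr1* by -0.32 (-1.09 to 0.45). *Ehhadh* differed by -0.45 (-1.37 to 0.47), *Vnn1* by -0.55 (-1.97 to 0.87) and *Pex11a* by 0.72 (-0.75 to 2.19). Changes of the size of those bounds in either direction are therefore not excluded by 3 mice per group.

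By class, 13 of 18 mitochondrial members lay below 0 with a median of -0.21, the peroxisomal members were split 7 to 7 with a median of -0.03, and the 2 ketone body enzymes were split 1 to 1. Within peroxisomes the range ran from *Acox2* to *Pex11a*. These medians moved in both directions with single arrays. Without ob/ob vehicle replicate 3 the median over all members was -0.42 with 5 of 38 above 0, and 0 members were called against 0.23% of all clusters. Without extract replicate 2, the highest of its group in 30 of 38 members against 31.1% of all clusters, the median was -0.42 with 7 above 0. Without ob/ob vehicle replicate 1, ob/ob vehicle replicate 2 or extract replicate 3 the split was close to even, with 19, 17 and 18 of 38 above 0.

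The third comparison set ob/ob mice given extract against wild-type mice. It shares its wild-type arrays with the first comparison and its extract arrays with the second. *Slc25a20*, *Acadm*, *Decr1*, *Pex11a* and *Vnn1*, 5 of the 38 members, rose and 0 fell, against 0.977% and 0.315% of all clusters (1.29% in either direction, limma, adjusted p under 0.05). The difference was above 0 in 37 of 38 members and in 45.7% of all clusters, with medians of 1.00 and -0.05. In 20 members all extract arrays were above all wild-type arrays, against 11.1% of all clusters, and in 0 they were all below, against 10.6%. By the criterion of the design text 22 members were higher and 0 lower, against 8.21% and 5.82%. The exception below 0 was *Acsl4*.

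*Slc25a20* was higher by 2.44 (SE 0.32, limma adjusted p = 0.00522), *Acadm* by 1.83 (SE 0.34, 0.0325) and *Decr1* by 1.68 (SE 0.35, 0.049). *Pex11a* was higher by 4.02 (SE 0.66, limma adjusted p = 0.0168) and *Vnn1* by 4.43 (SE 0.64, 0.00954). The other 4 members that had risen in ob/ob vehicle did not pass here: *Acaa1b* differed by 1.45 (limma adjusted p = 0.0609), *Ehhadh* by 1.86 (0.0657), *Hadh* by 1.77 (0.121) and *Acox2* by 0.55 (0.458). Passing in one ob/ob group and not in the other does not show that the groups differ. By class, 3 of 18 mitochondrial members rose with a median of 1.04, 1 of 14 peroxisomal members with a median of 0.84, and 0 of the 2 ketone body enzymes with a median of 1.12.

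Of these 5 calls, *Slc25a20* held in all 9 fits that left out 1 array, with a highest adjusted p of 0.0374. *Vnn1* was lost without wild-type replicate 2 (limma adjusted p = 0.0605) or extract replicate 1 (0.0538) or 2 (0.0666). *Pex11a* was lost without wild-type replicate 2 (limma adjusted p = 0.0708) or 3 (0.0611) or extract replicate 1 (0.0716) or 2 (0.0891), and *Acadm* without any wild-type array (0.0631, 0.114 and 0.106) or extract replicate 2 (0.182) or 3 (0.129). *Decr1* was lost in 7 of the 9 fits, all but those without wild-type replicate 1 or ob/ob vehicle replicate 3, with limma adjusted p up to 0.228, and also under quantile normalization, median subtraction, the fit of only the 2 groups and the trended prior. Without wild-type replicate 2, the array with muscle transcripts, *Slc25a20* alone was called, against 0.437% of all clusters, while the median over the members was 0.98 with 36 of 38 above 0. The differences that lost the call there were 1.89 for *Acadm*, 1.59 for *Decr1*, 4.16 for *Pex11a* and 4.15 for *Vnn1*. Without ob/ob vehicle replicate 3, 10 members were called against 2.69%, although leaving out that array changes only the estimate of the spread here.

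**Figure D4:**
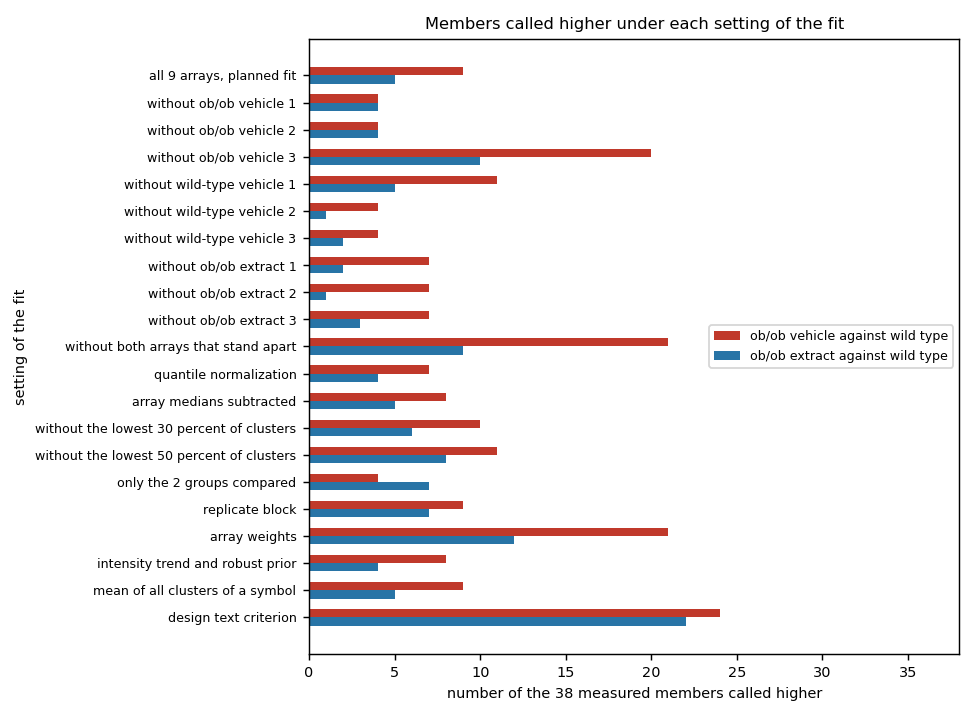
Number of the 38 measured members called higher (x axis, from 0) under each setting of the fit (y axis), for ob/ob vehicle (red) and ob/ob extract (blue) against wild type. The red count runs from 4 to 24 and the blue count from 1 to 22, and the largest counts belong to the unadjusted criterion of the design text.

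Genes of the same pathways outside the set were counted from lists of related genes. Among 28 further mitochondrial oxidation and carnitine genes, 4 rose in ob/ob vehicle over wild type and 0 fell, against 2.28% and 0.68% of all clusters, with a median difference of 0.66. They were *Pcca*, a subunit of propionyl-CoA carboxylase, at 1.62 (limma adjusted p = 0.0308), the acyl-CoA dehydrogenase *Acad9* at 1.09 (0.0445), the carnitine importer *Slc22a5* at 1.57 (0.0481) and *Bbox1*, the last enzyme of carnitine synthesis, at 1.86 (0.0485). None of the 28 was called between extract and vehicle, nor between extract and wild type.

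Among 6 further ketone body genes, 2 rose and 0 fell, against 2.28% and 0.68% of all clusters, and both are transporters of monocarboxylates. *Slc16a7* went from 10.49 ± 0.41 in wild type to 12.96 ± 0.51 in ob/ob vehicle, a difference of 2.47 (SE 0.34, limma adjusted p = 0.0054), and was 13.38 ± 0.39 in ob/ob extract (difference from wild type 2.89, adjusted p = 0.00277). *Slc16a1* rose by 1.89 (SE 0.30, limma adjusted p = 0.0113) and was the only gene of this list with an unadjusted p under 0.05 between extract and vehicle, at -0.91 (limma adjusted p = 0.741).

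Of 42 further peroxisomal genes, 4 rose in ob/ob vehicle and 1 fell, against 2.28% and 0.68% of all clusters, with a median of 0.42. The biogenesis factors *Pex3* and *Pex2* rose by 2.53 (limma adjusted p = 0.0241) and 1.86 (0.0426), *Gnpat*, the first enzyme of ether lipid synthesis, by 1.81 (0.0407) and the nucleotide hydrolase *Nudt12* by 1.41 (0.0417). *Agxt*, the alanine-glyoxylate aminotransferase, fell by 2.10 (limma adjusted p = 0.0456). Between extract and wild type 3 of the 42 rose, against 0.977% of all clusters, and between extract and vehicle 0 were called.

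The list of the PPAR alpha axis (receptors, partners and known targets outside the set) held 32 measured genes, among them the separate receptor *Pparg*. In ob/ob vehicle 8 of the 32 rose and 1 fell, against 2.28% and 0.68% of all clusters, with a median of 0.51. Which receptor acts on the listed genes was not tested. *Cidea*, a lipid droplet protein, rose by 5.24 (limma adjusted p = 0.00306), the receptor *Pparg* by 3.51 (0.00922) and the thioesterase *Acot3* by 5.08 (0.0207), whereas the phosphatidate phosphatase *Lpin1* fell by 3.25 (0.0178). The olfactory receptor level on the wild-type arrays ran from 5.56 to 6.62. The wild-type mean of *Cidea* (4.77) lay under that range and those of *Pparg* (6.52) and *Acot3* (5.65) lay inside it. Their folds may be understated. *Ppara* itself was 10.96 ± 0.36 in wild type, 11.63 ± 1.29 in vehicle-treated ob/ob mice and 11.66 ± 0.94 with extract (difference between the first pair 0.67, limma adjusted p = 0.642). The coactivator *Ppargc1a* was 7.88 ± 0.96, 6.91 ± 1.84 and 7.31 ± 0.66 (difference -0.97, limma adjusted p = 0.602). Between extract and wild type 7 of the 32 rose and 0 fell, against 0.977% and 0.315% of all clusters, and between extract and vehicle 0 were called.

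The citric acid cycle takes up the acetyl-CoA made by oxidation. Its list here also held genes of pyruvate metabolism: *Pdha1*, *Pdhb*, *Dlat*, *Pdk1*, *Pdk2*, *Pcx* and *Me3*. The 24 measured genes of this mixed list had a median difference of 1.11, close to that of the mitochondrial members. Of the 24 genes 2 rose, against 2.28% of all clusters. These were *Suclg2*, a subunit of succinyl-CoA synthetase, at 1.25 (limma adjusted p = 0.029) and *Dlst*, of the 2-oxoglutarate dehydrogenase complex, at 1.43 (0.0314). *Suclg2* was also higher in ob/ob extract than in wild type, by 1.55 (limma adjusted p = 0.0151), and 0 of the 24 were called between extract and vehicle.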

How the data were processed

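Deposited values are log2 signals for each cluster on each array, which the authors made with Transcriptome Analysis Console 4 and RMA per the submitters' processing notes (the signal space form of RMA, per the design text), rounded to 2 decimals and ranging from 1.86 to 19.93. Signal space transformation stretches fold changes, so differences depend on it. No detection filter was applied. GEO's platform annotation gave 19572 of 22206 clusters 1 symbol. The other 2634 had no single symbol (none or several) and were kept in the fit without a name. No genome build is named for the array, and coordinates are only those of RefSeq promoter windows (GRCm38.p6). With limma 3.58.1 in R 4.3.3, group means were fitted over all 9 arrays (6 residual and 4.45 prior degrees of freedom), with Benjamini-Hochberg adjustment over all clusters and a threshold of 0.05; the fit was tested on simulated data. Array number limits precision.

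Members and lists were chosen with earlier results of these data known. Array values are given for called members and the 6 with the smallest p between extract and vehicle, and, chosen after their values were seen, for *Cpt1a*, *Cpt2* and *Crat*. Up to 4 called genes per related list are named by smallest p, and *Agxt* was added after its values were seen. A symbol with several clusters would be read from the brightest, which applied to 0 members. Same-numbered wild-type and ob/ob vehicle arrays deviated together over all clusters (correlations 0.256, 0.262 and 0.45), a pairing that comes from the data, not the labels. The fit reported has no block, and the block is an alternative. Extract arrays did not deviate with same-numbered arrays of the other groups over all clusters (-0.208 to 0.0157). Over the 38 members the correlations were -0.111, 0.133 and 0.0843 for wild-type and ob/ob vehicle arrays. They were 0.202, 0.373 and 0.53 for extract and ob/ob vehicle arrays, and -0.299 to 0.165 for extract and wild-type arrays. Alternatives left out arrays, changed normalization, filters, weights, prior and block.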

Additional observations from a re-analysis of the deposited data

How the results depend on the processing

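Each comparison was refitted under 20 alternatives. In ob/ob vehicle against wild type, the reported fit called 9 members and 2.96% of all clusters. Leaving out 1 array at a time gave 4 to 20 members called. The count was 4 without ob/ob vehicle replicate 1 (0.779% of all clusters) or 2 (0.838%) or wild-type replicate 2 (0.662%) or 3 (1.18%). It was 20 without ob/ob vehicle replicate 3 (7.56%). Without the lowest 50 percent of clusters it was 11 (7.33% of those kept). The count was 21 without both arrays that stand apart (7.86% of all clusters), 4 with only the 2 groups compared (0.932%), 21 with array weights (9.62%) and 24 by the design text's unadjusted criterion, which 17% of all clusters met. In extract against wild type the count was 5 in the reported fit (1.29% of all clusters) and 1 to 10 over single arrays. It was 1 without wild-type replicate 2 (0.437%) or extract replicate 2 (0.347%), and 10 without ob/ob vehicle replicate 3 (2.69%). It was 9 without both arrays (2.68%) and 8 without the lowest 50 percent of clusters (3.13% of those kept). Array weights gave 12 (3.58%) and the unadjusted criterion 22 (14%). Extract against vehicle gave 0 in every fit and 2 by the unadjusted criterion. With the replicate number as a block the counts were 9, 0 and 7, against 2.61%, 0% and 1.27% of all clusters. Pairing ended no call of a named member. The 7 in extract against wild type include the 5 called without the block and *Ehhadh*. However, same-numbered arrays of those groups did not deviate together over all clusters (-0.208 to -0.0412).

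Signs turned in small differences between ob/ob vehicle and wild type. Without both arrays, *Acsl4* was -0.36, *Etfa* -0.17 and *Scp2* -0.01. Quantile normalization gave *Acsl4* -0.26, *Acaa2* -0.10, *Etfa* -0.41, *Eci2* -0.32 and *Abcd3* -0.088, with 33 of 38 members above 0 and a median of 0.78. Array weights gave *Acsl4* -0.19 and *Etfa* -0.10. Over single arrays *Eci2* ran from -0.20 to 0.48, *Acsl4* from -0.12 to 0.38, *Etfa* from -0.18 to 0.13 and *Acaa2* from -0.023 to 0.43. Between extract and vehicle *Vnn1* ran from -1.21 to 0.055, *Slc25a20* from -0.12 to 0.30 and *Pex11a* from -0.05 to 1.23, and without both arrays *Slc25a20* was -0.043 and *Pex11a* -0.047. Causes were not tested, apart from settings with fewer clusters or arrays.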

Other observations

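The genes below, which act beside the oxidation spiral, were chosen after their values were seen. The acyl-CoA thioesterase *Acot3* was 5.65 ± 0.67 in wild type, 10.74 ± 2.33 in vehicle-treated ob/ob mice and 12.92 ± 0.88 with extract, the extract group being higher than wild type by 7.27 (limma adjusted p = 0.00508) and than ob/ob vehicle by 2.19 (limma adjusted p = 0.767). The peroxisomal thioesterase *Acot4* was 5.72 ± 0.38, 8.08 ± 1.48 and 9.77 ± 0.94 (extract against vehicle 1.69, limma adjusted p = 0.765). The wild-type means of *Acot3* and *Acot4* lay inside the range of the olfactory receptor level on the wild-type arrays, 5.56 to 6.62. The omega-hydroxylases *Cyp4a10* and *Cyp4a14*, which make the dicarboxylic acids that peroxisomes oxidise, were higher than wild type in ob/ob extract by 3.46 (limma adjusted p = 0.0185) and 4.20 (0.0111), and in vehicle-treated ob/ob mice by 2.45 (0.0519) and 3.27 (0.0248). Between extract and vehicle they differed by 1.01 (limma adjusted p = 0.823) and 0.93 (0.842). *Lpin1* was 13.74 ± 0.38 in wild type, 10.49 ± 0.87 in vehicle-treated ob/ob mice and 11.99 ± 1.17 with extract, and extract against vehicle gave a limma adjusted p of 0.765.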
